A study of Mus musculus with 2 samples.

Results

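The circadian clock core genes are 10 genes chosen by their symbols, the activators Arntl, Clock and Npas2, the Period genes Per1, Per2 and Per3, the Cryptochrome genes Cry1 and Cry2, and the REV-ERB genes Nr1d1 and Nr1d2. All 10 were found, each under 1 identifier, among 55536 annotated genes. They were measured in hearts of male B6CASTF1/J mice, F1 hybrids from The Jackson Laboratory that were 2 months old, with no treatment named. Total RNA reduced in ribosomal RNA was sequenced, 1 library for each of 2 biological replicates. The labels number the tissue samples separately but give both the same donor entry, so reading them as separate mice rests on the labels alone. There is no other group and the hour at which the hearts were taken is not given in the sources used here, so levels, ratios within a library and differences between the 2 hearts are described, and no p-value is possible.

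As background, the clock of mammalian cells is a transcriptional loop. The product of Arntl, also called BMAL1, pairs with CLOCK or its paralog NPAS2 on E-box sequences and activates the Per, Cry and Nr1d genes. PER and CRY proteins inhibit the pair, and the REV-ERB receptors made by Nr1d1 and Nr1d2 repress Arntl at ROR elements, where ROR receptors activate it. D-boxes are bound by the activators DBP, TEF and HLF and the repressor NFIL3. In mouse tissues kept in light and dark, Arntl and Npas2 messages are known to run opposite to Nr1d1, Dbp and the Per messages, while Clock varies little. In the heart the loop is known for timing genes of metabolism and of ion channels.

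Total expected counts over annotated genes were 44321172 in replicate 2 and 38963569 in replicate 1. Cardiomyocyte markers were high, with Myh6 at 8105 and 7294 TPM in replicates 2 and 1 (TPM is a level corrected for transcript length and library depth), and the liver gene Alb and the skeletal myosin Myh2 were at 0 in both. In bulk tissue, fewer cells of a type and less RNA per cell cannot be told apart. The red cell markers Hbb-bs, Hba-a1 and Alas2 summed to 4292 TPM in replicate 2 and 13711 TPM in replicate 1. Each of the 3 passed 2-fold, all toward replicate 1, as did 0.369% of the 12453 genes whose mean expected count reached 50. The adipocyte markers Adipoq, Plin1, Cfd, Lep and Ucp1 summed to 20.6 TPM in replicate 2 and 10.4 TPM in replicate 1. Of these 5, Ucp1, Plin1 and Adipoq passed 1.5-fold toward replicate 2, as did 0.827% of the same 12453 genes. Cfd had a log2 ratio of 0.39, and Lep was near 0 TPM. The summed markers of cardiomyocytes, endothelium, fibroblasts, smooth muscle with pericytes, and macrophages differed by 0.955-fold to 1.16-fold between replicates 2 and 1. Within the smooth muscle and pericyte list, Acta2 and Myh11 were 1.42-fold and 1.29-fold higher in replicate 2, while Rgs5, the largest part of the sum, had a log2 ratio of 0.05. The part of these cell types in the clock gene differences below was not tested.

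The promoters of 4 clock genes are printed because they hold the letters through which the loop is known to act, and because Arntl and Per1 differed most between the hearts. Each window runs 250 bases before to 50 bases after a RefSeq start (build GRCm38.p6), 5′ to 3′ on the gene's strand, and capitals mark a match on either strand. RefSeq windows were matched by symbol for 9 of the 10 genes, all but Per2. Arntl has 2 windows, and the one printed is chr7:113207261-113207560 on the plus strand, and its capitals mark a ROR element core (GTAGGTCA, which contains the shorter core TAGGTCA) that begins at base 30 after the start. Transcripts assigned to the start of that window held 5.45% of Arntl TPM in replicate 2 and 0% in replicate 1 in the alignment-based transcript table, and 0% and 9.09% in the read-based one, a second quantification of the same libraries. Those at the start of the other window, which held none of the motifs searched, held 72.4% in replicate 2 and 94.1% in replicate 1 in the alignment-based table, and 76.3% and 82.3% in the read-based one. The 2 windows overlap, with starts at bases 113207465 and 113207511. The other window ends at base 113207514, before the ROR element core, so the same core also lies downstream of its start.
Arntl: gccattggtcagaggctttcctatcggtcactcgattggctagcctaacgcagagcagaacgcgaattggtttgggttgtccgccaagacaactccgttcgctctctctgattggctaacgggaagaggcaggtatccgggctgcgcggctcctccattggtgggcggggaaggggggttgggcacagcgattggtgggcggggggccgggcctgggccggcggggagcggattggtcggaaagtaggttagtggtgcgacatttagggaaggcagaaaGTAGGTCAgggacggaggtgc
Per1 also has 2 windows, and the one printed, at the start of its leading transcript, is chr11:69098699-69098998 on the plus strand, and its capitals mark an E-box (CACGTG) that begins 166 bases before the start.
Per1: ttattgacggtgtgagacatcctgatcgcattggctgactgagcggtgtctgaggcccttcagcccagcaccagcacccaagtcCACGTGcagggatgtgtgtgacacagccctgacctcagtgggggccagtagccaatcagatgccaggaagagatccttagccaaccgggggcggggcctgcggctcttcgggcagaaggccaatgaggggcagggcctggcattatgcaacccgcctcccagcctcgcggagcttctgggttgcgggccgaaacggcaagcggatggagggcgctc
The Cry1 window is chr10:85185005-85185304 on the minus strand, with an E-box that begins 60 bases before the start and the variant CACGTT, here as AACGTG, 79 bases before it.
Cry1: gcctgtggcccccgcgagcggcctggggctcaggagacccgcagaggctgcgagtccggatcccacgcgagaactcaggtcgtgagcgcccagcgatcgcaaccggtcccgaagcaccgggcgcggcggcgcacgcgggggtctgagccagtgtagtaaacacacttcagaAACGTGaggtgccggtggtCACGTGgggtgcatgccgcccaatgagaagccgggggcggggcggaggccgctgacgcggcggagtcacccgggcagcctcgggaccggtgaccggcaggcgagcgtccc
The Per3 window is chr4:151044616-151044915 on the minus strand, and its capitals mark 2 D-boxes (TTATGTAA) that begin 205 and 158 bases before the start.
Per3: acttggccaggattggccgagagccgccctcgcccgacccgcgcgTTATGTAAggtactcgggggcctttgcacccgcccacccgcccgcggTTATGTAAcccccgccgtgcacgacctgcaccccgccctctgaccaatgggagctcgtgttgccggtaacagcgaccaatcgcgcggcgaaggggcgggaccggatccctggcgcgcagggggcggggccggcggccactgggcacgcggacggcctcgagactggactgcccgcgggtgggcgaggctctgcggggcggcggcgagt

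Among 32851 RefSeq promoter windows of the same length, 7.15% held CACGTG, 4.68% CACGTT, 2.61% TAGGTCA, 0.621% GTAGGTCA and 0.938% TTATGTAA. A D-box of the other spelling searched, TTACGTAA, was in 0.119% of them and in none of the clock gene windows. Only 7 of the 32851 windows held TTATGTAA at least 2 times, and that of Per3 is one of them. Of the 9 clock genes with a window, Per1 and Cry1 held CACGTG, and Cry1, Cry2 and Nr1d1 held CACGTT. The windows of Clock, Npas2 and Nr1d2 held none of the 6 motifs searched. These matches are descriptions of letters and not binding sites, and they say nothing of sites outside the windows.

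The REV-ERB genes were the most abundant clock messages in both hearts, and the activator Npas2 was the least abundant. Nr1d1 (ENSMUSG00000020889.11, chr11:98767932-98775333, minus strand, mm10) stood at 42.7 TPM in replicate 2 and 45.8 TPM in replicate 1, a mean of 44.2 ± 2.16 (SD, n = 2), above 88.1% of the 11936 genes that reached 1 TPM in both hearts. Its paralog Nr1d2 (ENSMUSG00000021775.11, chr14:18204054-18239127, minus strand, mm10) stood at 39.9 TPM in replicate 2 and 35.3 TPM in replicate 1, with a mean of 37.6 ± 3.25. In the gene table the TPM ranges of the paralogs did not overlap, but the gap between 42.7 and 39.9 TPM was narrow. In the read-based table they overlapped. Nr1d1 stood there at 45.5 TPM in replicate 2 and 49.4 TPM in replicate 1, and Nr1d2 at 45.8 and 37.3 TPM. Per1 (ENSMUSG00000020893.17, chr11:69095217-69109960, plus strand, mm10), the Period gene that acute stimuli are known to induce, followed at 30.6 TPM in replicate 2 and 16.2 TPM in replicate 1. Its mean of 23.4 ± 10.2 TPM had the widest spread in TPM of the 10 genes. In the read-based table Per1 stood at 22.0 TPM in replicate 2 and 12.2 TPM in replicate 1. Clock stood there at 12.2 TPM in replicate 2 and 13.0 TPM in replicate 1, so Per1 lay below Clock in replicate 1.

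Clock and the Cryptochrome Cry2 lay in the middle of the order. Clock (ENSMUSG00000029238.11, chr5:76209868-76304792, minus strand, mm10), the partner of BMAL1 with histone acetyltransferase activity, stood at 11.3 TPM in replicate 2 and 12.2 TPM in replicate 1. Cry2 (ENSMUSG00000068742.11, chr2:92403646-92434043, minus strand, mm10) stood at 11.2 TPM in replicate 2 and 8.87 TPM in replicate 1, so that its upper value came close to the lower value of Clock. Its paralog Cry1 (ENSMUSG00000020038.10, chr10:85131700-85185064, minus strand, mm10), the stronger repressor of the pair in cell assays, stood at 3.27 TPM in replicate 2 and 2.42 TPM in replicate 1. Cry2 therefore exceeded Cry1 in both hearts, by 3.43-fold in replicate 2 and 3.67-fold in replicate 1.

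Per3, Per2, Arntl and Cry1 could not be put in a firm order. Per3 (ENSMUSG00000028957.12, chr4:151003652-151044665, minus strand, mm10), the Period gene that is dispensable for rhythms in mice, stood at 4.25 TPM in replicate 2 and 4.17 TPM in replicate 1. Per2 (ENSMUSG00000055866.9, chr1:91415982-91459324, minus strand, mm10), whose loss shortens or abolishes rhythms in mice, stood at 5.29 TPM in replicate 2 and 2.57 TPM in replicate 1. Arntl (ENSMUSG00000055116.8, chr7:113207465-113314126, plus strand, mm10), the activator that both CLOCK and NPAS2 need, stood at 2.75 TPM in replicate 2 and 4.41 TPM in replicate 1. In the gene table the ranges of Per3 and Per2, of Per2 and Arntl, and of Arntl and Cry1 overlapped. Each of these neighbours changed places between the hearts there, but in the read-based table Per3 exceeded Per2 in both hearts. Npas2 (ENSMUSG00000026077.15, chr1:39193731-39363236, plus strand, mm10), the paralog that can stand in for CLOCK, stood at 0.690 TPM in replicate 2 and 1.00 TPM in replicate 1. It was the single member that missed 1 TPM in a heart in the gene table, with 90 and 97 expected counts in replicates 2 and 1. In the read-based transcript table it stood at 1.02 TPM in replicate 2 and 1.41 TPM in replicate 1, so all 10 members reached 1 TPM there.

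The 10 clock genes had a median of 8.25 TPM in replicate 2 and 6.64 TPM in replicate 1, a mean of 7.45 ± 1.14 (SD, n = 2). The genes that reached 1 TPM in both hearts had a median of 8.48 TPM in replicate 2 and 8.19 TPM in replicate 1. The members thus lay around a median close to that of detected genes.

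**Figure D1:**
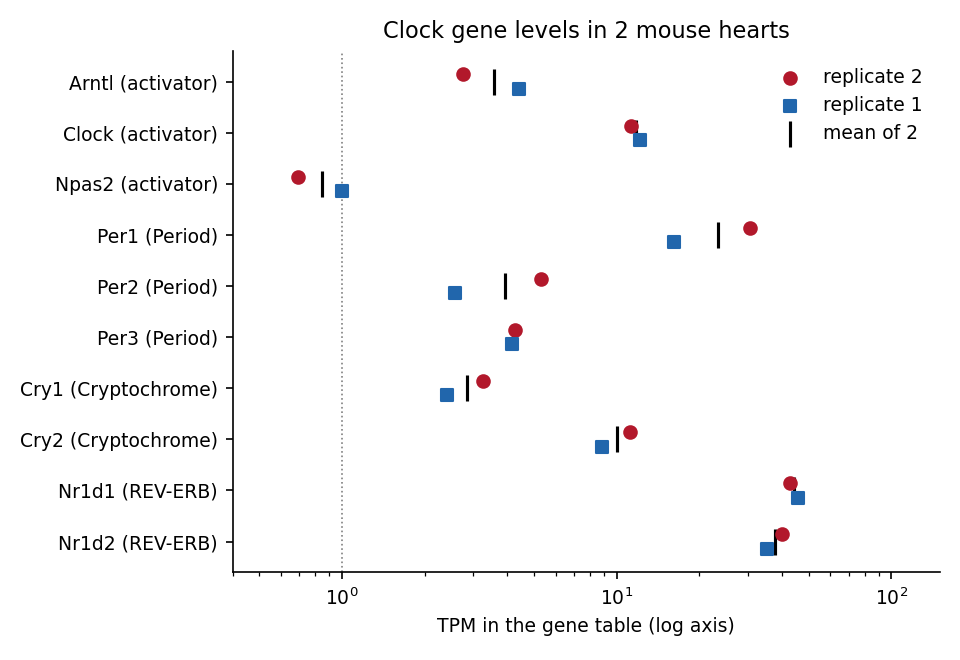
TPM of the 10 clock genes (log axis) in replicate 2 (red circles) and replicate 1 (blue squares), with the mean of both as a black tick and 1 TPM as a dotted line. Nr1d1 and Nr1d2 lie highest, at 35.3 TPM or more in both hearts, and Npas2 lies lowest.

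The clock genes differed more between the 2 hearts than most genes did. The activators and most repressors lay on opposite sides of equal levels, but the repressor Nr1d1 lay on the side of the activators. Npas2 and Per3 were not distinguished from equal levels. Ratios of replicate 2 over replicate 1 were taken from expected counts scaled by TMM (trimmed mean of M-values), with intervals for counting error only, because each heart has 1 library. The median absolute log2 ratio of the 10 genes was 0.31, against 0.08 over the 12453 genes whose mean expected count reached 50 and 0.13 over the 5753 of these with 50 to 500 counts. No member reached 2-fold, which 0.570% of the 12453 genes passed in either direction, 0.201% toward replicate 2 and 0.369% toward replicate 1. At 1.5-fold, 2 of the 10 members passed, against 2.08% of the 12453 genes. Per1 was the member past 1.5-fold toward replicate 2, as were 0.827% of genes, and Arntl the one toward replicate 1, as were 1.25%. Of the 10 counting intervals, 5 lay above 0, 3 below 0 and 2 included 0. The same count over the 12453 genes is not given here, so it does not set the clock genes apart from other genes. At high counts even small ratios leave out 0, as for Nr1d2 at 0.13 (interval 0.07 to 0.19).

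**Figure D2:**
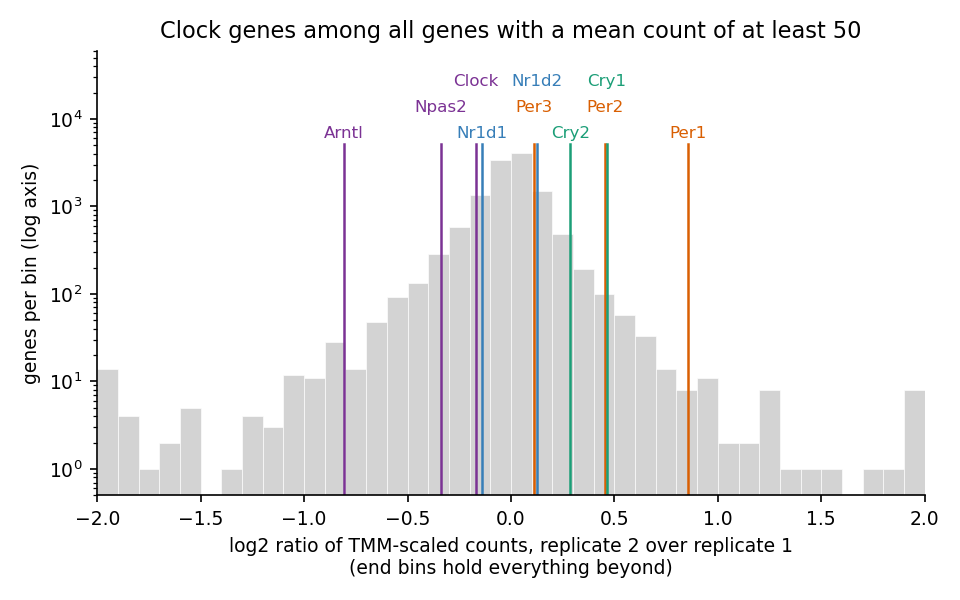
Number of genes (log axis) per bin of the log2 ratio of TMM-scaled counts, replicate 2 over replicate 1, for the 12453 genes whose mean expected count reached 50, with coloured lines at the 10 clock genes. Per1 at 0.86 and Arntl at -0.81 lie in the sparse flanks of the distribution.

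All 3 activators had log2 ratios below 0, lower in replicate 2, except that Clock was level under spike-in scaling and the interval of Npas2 included 0. Arntl had 260 expected counts in replicate 2 and 387 in replicate 1, a log2 ratio of -0.81 (95% exact counting interval -1.04 to -0.58) or 1.75-fold higher in replicate 1. Among genes of similar depth such differences were more frequent, since of the 5753 genes with 50 to 500 counts, 4.02% passed 1.5-fold in either direction, 2.47% toward replicate 1 and 1.55% toward replicate 2. Npas2 had a log2 ratio of -0.34, with an interval from -0.77 to 0.09 that includes 0. Clock had 2934 and 2810 counts in replicates 2 and 1 and a log2 ratio of -0.17 (interval -0.25 to -0.10), 1.13-fold higher in replicate 1. Scaled on the spike-ins, which shift every ratio by 0.17 toward replicate 2, Clock came to 0.00 while Arntl stayed at -0.63.

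All 3 Period and both Cryptochrome genes had log2 ratios above 0 under every scaling run, and the interval of Per3 alone included 0. Per1 had 3226 counts in replicate 2 and 1517 in replicate 1, a log2 ratio of 0.86 (interval 0.77 to 0.94) or 1.81-fold higher in replicate 2. Per2 had 712 and 442 counts in replicates 2 and 1, a log2 ratio of 0.45 (interval 0.28 to 0.63). Cry1 had 337 and 208 counts in the same order and a log2 ratio of 0.46 (interval 0.21 to 0.72), and Cry2 had 1463 and 1020 counts and a log2 ratio of 0.29 (interval 0.17 to 0.40). Per3, at 0.11 with an interval from -0.05 to 0.27, was not distinguished from equal levels at this depth. Under spike-in scaling Per1 reached a log2 ratio of 1.03, just past 2-fold.

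The REV-ERB genes stayed close to each other in size but not in direction. Nr1d1 had 3881 counts in replicate 2 and 3641 in replicate 1, a log2 ratio of -0.14 (interval -0.21 to -0.08), which turned to 0.03 under spike-in scaling. Nr1d2 had 5273 and 4108 counts in replicates 2 and 1 and a log2 ratio of 0.13 (interval 0.07 to 0.19). Nr1d1 was 1.10-fold higher in replicate 1 and Nr1d2 1.09-fold higher in replicate 2.

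**Figure D3:**
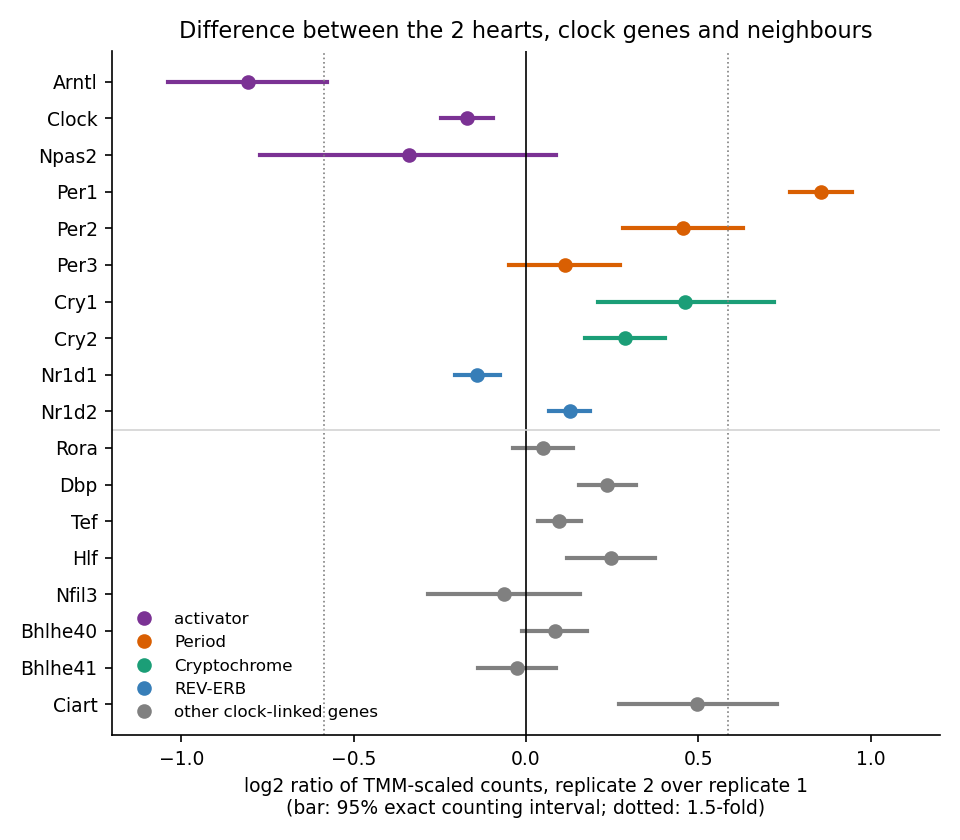
Log2 ratio of TMM-scaled counts, replicate 2 over replicate 1, for the 10 clock genes (coloured by role) and 8 further clock-linked genes (grey), with bars for the 95% exact counting interval and dotted lines at 1.5-fold. The 3 activators lie left of 0 (Clock came to 0.00 under spike-in scaling), and the Period and Cryptochrome genes lie right of it, with Per3 spanning 0.

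The balance of repressor to activator messages within a library does not depend on scaling between libraries. Summed TPM of the 7 repressor genes was 137 in replicate 2 and 115 in replicate 1, and that of the 3 activators was 14.7 in replicate 2 and 17.6 in replicate 1. The repressors thus exceeded the activators by 9.34-fold in replicate 2 and 6.55-fold in replicate 1, a mean log2 ratio of 2.97 ± 0.36 (SD, n = 2). Nr1d1 exceeded Arntl, which it represses, by 15.5-fold in replicate 2 and 10.4-fold in replicate 1, a mean log2 ratio of 3.67 ± 0.41. Dbp, an output gene under E-box control, exceeded Arntl by 18.7-fold in replicate 2 and 9.87-fold in replicate 1. The sum sets 7 genes against 3, and Clock made up most of the activator sum, with 11.3 TPM in replicate 2 and 12.2 TPM in replicate 1. No hour was assigned from these ratios.

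The ratios of Per2, Cry1 and Per3 to Arntl lay on different sides of equality in the 2 hearts. Per2 over Arntl was 1.92-fold in replicate 2 and 0.583-fold in replicate 1, and Cry1 over Arntl was 1.19-fold in replicate 2 and 0.549-fold in replicate 1. Per3 over Arntl was 1.55-fold in replicate 2 and 0.946-fold in replicate 1, close to equal in replicate 1. Npas2 over Arntl stayed below equality, at 0.251-fold in replicate 2 and 0.227-fold in replicate 1. In the read-based table the log2 ratio of Per2 to Arntl was 0.24 in replicate 2 and -0.84 in replicate 1, and that of Cry1 to Arntl was 0.23 in replicate 2 and -0.92 in replicate 1. All 7 ratios over Arntl were higher in replicate 2 in both tables, and they share its values.

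Ratios between paralogs and between partners moved less than those of Per2, Cry1 and Per3 to Arntl, apart from Per3 over Per2 in the gene table. There Per3 over Per2 was 0.803-fold in replicate 2 and 1.62-fold in replicate 1. In the read-based table it was above equality in both hearts, at 1.26-fold in replicate 2 and 1.66-fold in replicate 1. Clock exceeded its partner Arntl by 4.09-fold in replicate 2 and 2.76-fold in replicate 1. Clock exceeded Npas2 by 16.3-fold in replicate 2 and 12.2-fold in replicate 1. Per1 exceeded Per2 by 5.78-fold in replicate 2 and 6.31-fold in replicate 1, and by 5.82-fold and 4.41-fold in the read-based table. Nr1d1 exceeded Nr1d2 by 1.07-fold in replicate 2 and 1.30-fold in replicate 1, and in the read-based table the REV-ERB genes were level in replicate 2 at 0.992-fold. Rora, an activator at the elements where REV-ERB receptors repress, stood at 0.259 of Nr1d1 in replicate 2 and 0.227 in replicate 1.

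**Figure D4:**
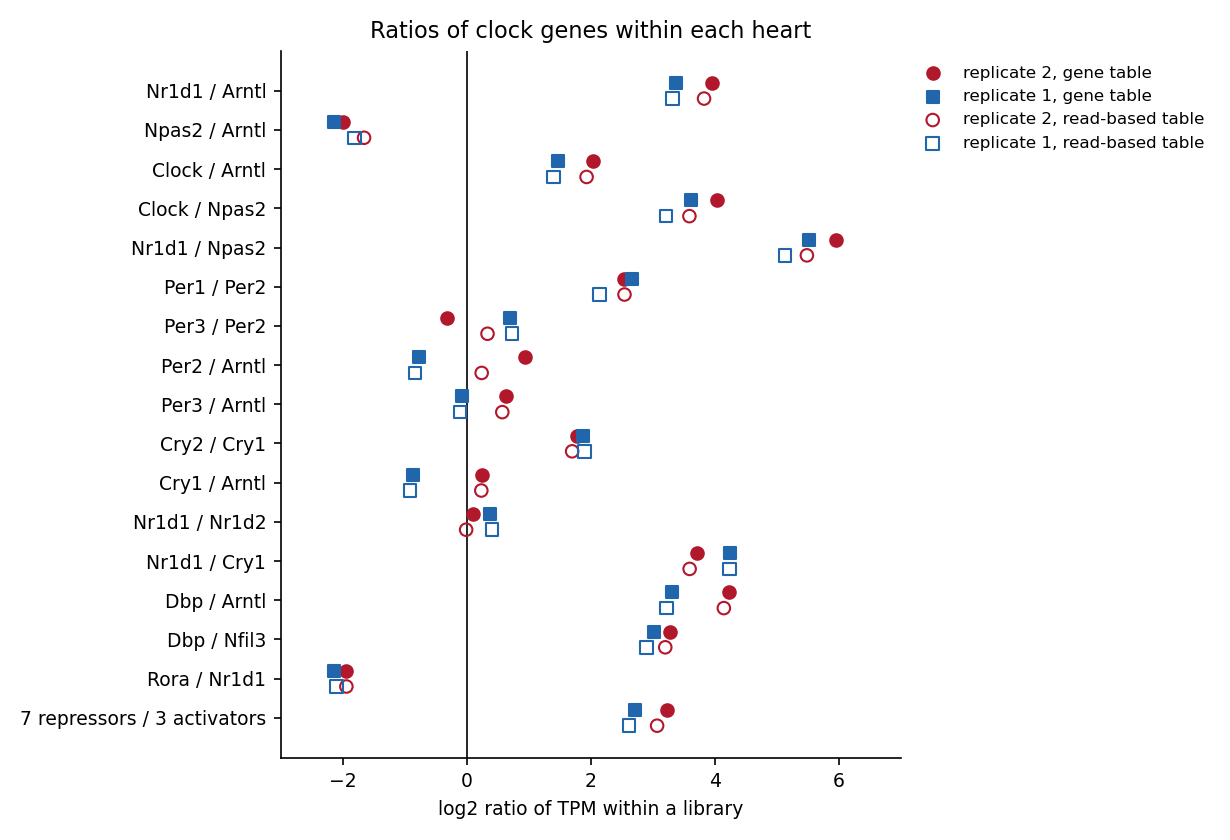
Log2 ratios of TPM between clock genes within replicate 2 (red circles) and replicate 1 (blue squares), from the gene table (filled) and the read-based transcript table (open). Nr1d1, Dbp and the summed repressors lie well right of 0 over Arntl or the activators in both hearts, while Per2, Per3 and Cry1 over Arntl lie on either side of 0.

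Both transcript tables named the same leading transcript for all 10 clock genes. The alignment-based table gave Nr1d1-201 97.6% and Cry1-201 96.9% of their gene's TPM as means of the 2 hearts. For Clock, Per1 and Per3 the leading transcript held a smaller share there, with Clock-201 at 54.1%, Per1-201 at 54.3% and Per3-201 at 52.1%. Per3-201 held 58.4% of Per3 TPM in replicate 2 and 45.9% in replicate 1. Clock-205, a longer transcript of 9744 bases that starts at another RefSeq start, held 28.5% in that table and 16.1% in the read-based one.

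A shorter Arntl transcript took a larger share in the heart with less Arntl. Arntl-206, a coding transcript whose start lies 27112 bases downstream of the nearest RefSeq start, held 19.3% of Arntl TPM in replicate 2 and 2.94% in replicate 1 in the alignment-based table. In the read-based table it held 20.1% in replicate 2 and 5.53% in replicate 1, from 50.3 and 18.9 estimated counts. The main transcript Arntl-201 stood at 1.99 TPM in replicate 2 and 4.16 TPM in replicate 1 in the alignment-based table, a wider gap than that of the gene. Of the 31-base words of Arntl-206, 98.0% also occur in other Arntl transcripts, so little of its sequence tells it apart.

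Short transcripts held part of the TPM of the Period genes and of Npas2. Per1-204, of 496 bases, held 35.2% of Per1 TPM in replicate 2 and 33.3% in replicate 1 in the alignment-based table, on 150 and 66.4 counts, but 0 in both hearts in the read-based one. Of its 31-base words, 98.7% occur in other Per1 transcripts. Per2-202, of 231 bases and with no coding sequence annotated, held 34.0% of Per2 TPM in replicate 2 and 3.11% in replicate 1 on 8.38 and 0.340 counts, and 0 in the read-based table. The Per2 difference was 2.06-fold in gene-table TPM and 1.37-fold in scaled counts, and Per2-201 alone stood at 3.49 TPM in replicate 2 and 2.49 TPM in replicate 1. Per1-201 alone stood at 17.1 TPM in replicate 2 and 8.55 TPM in replicate 1. Over transcripts of at least 500 bases, a cut chosen after seeing the data that leaves out Per1-204, the Per1 difference was 1.83-fold. In gene-table TPM it was 1.89-fold. Npas2-203, of 484 bases, held 11.6% of Npas2 TPM in replicate 2 and 27.0% in replicate 1 on 1.14 and 3.25 counts, so the TPM ratio of Npas2 rests partly on a handful of reads.

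Transcripts with retained introns made up part of Per3 and Nr1d2, which total RNA can include as unspliced message. For Per3 they held 27.8% of TPM in replicate 2 and 42.8% in replicate 1 in the alignment-based table, and 21.9% and 34.1% in the read-based one. The coding transcript Per3-201 stood at 2.48 TPM in replicate 2 and 1.92 TPM in replicate 1, a fold of 1.29 where the whole gene gave 1.02. For Nr1d2 retained introns held 22.7% in replicate 2 and 25.0% in replicate 1, and 14.3% and 15.5% in the read-based table. The Cryptochrome genes and Per1, Per2, Npas2 and Nr1d1 held at most 6.84% on such transcripts in either table.

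**Figure D5:**
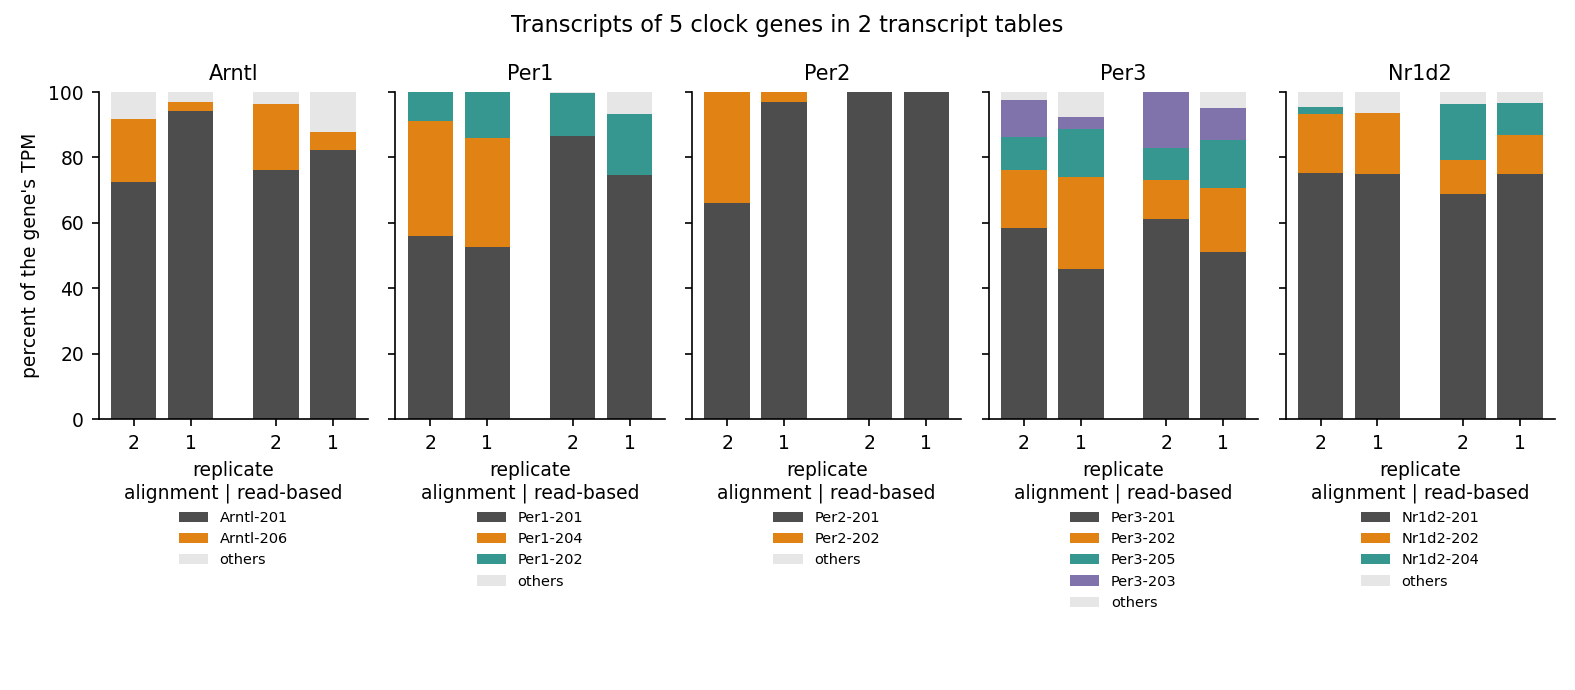
Share of each gene's TPM on its transcripts for Arntl, Per1, Per2, Per3 and Nr1d2, in replicates 2 and 1, with the alignment-based table as the left bars and the read-based table as the right bars of each panel. Per1-204 and Per2-202 appear in the alignment-based bars only, and Arntl-206 is larger in replicate 2 in both tables.

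Of 8 annotated genes that overlap a clock gene, Thra is the one that shares exon sequence and is abundant. Thra, the thyroid hormone receptor alpha gene, lies on the strand opposite to Nr1d1 and shares 263 exonic bases with it, and it stood at 40.4 TPM in replicate 2 and 35.5 TPM in replicate 1. The labels speak of a stranded library, but whether counting used strand is not given in the sources used here, so reads in those bases may be shared. Ube2n-ps1, a pseudogene within Clock at 32.0 and 28.0 TPM in replicates 2 and 1, and Camta1, which overlaps the Per3 locus at 89.8 and 84.2 TPM, share no exonic base with them.

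The other genes of the pathway lay mostly near equality between the hearts. No tested gene of the ROR, D-box, further repressor, enzyme, co-repressor or output lists passed 1.5-fold. Only 2.08% of the 12453 genes did so in either direction, so this absence does not set these lists apart from other genes. Of the ROR activators, Rora stood at 11.1 TPM in replicate 2 and 10.4 TPM in replicate 1, and Rorb was below 1 TPM in both. The D-box activators Dbp, Tef and Hlf were higher in replicate 2, with log2 ratios of 0.24, 0.10 and 0.25 and intervals above 0, and their antagonist Nfil3 was at -0.06 (interval -0.28 to 0.16). Dbp stood at 51.5 TPM in replicate 2 and 43.5 TPM in replicate 1. Among further repressors, Ciart, an inhibitor of the CLOCK and BMAL1 pair, had 423 counts in replicate 2 and 255 in replicate 1, a log2 ratio of 0.50 (interval 0.27 to 0.73), while Bhlhe40 and Bhlhe41 were at 0.08 and -0.03 with intervals that include 0. Arntl2, the paralog of Arntl, stood at 0.570 TPM in replicate 2 and 0.260 TPM in replicate 1 in the gene table, and at 1.65 TPM in replicate 2 and 1.38 TPM in replicate 1 in the read-based one.

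Enzymes that act on PER and CRY proteins were present and close to level. Of 10 kinases, ubiquitin ligase genes and the deubiquitinase gene Usp2, 9 reached 1 TPM in both hearts, and the median log2 ratio of those 9 was 0.01. Usp2 was highest, at 79.1 TPM in replicate 2 and 67.8 TPM in replicate 1, with a log2 ratio of 0.15 (interval 0.09 to 0.20). The kinase genes Csnk2a1 and Gsk3a stood at 36.1 and 26.6 TPM in replicate 2 and at 38.8 and 24.3 TPM in replicate 1. Fbxl21, a ligase subunit that acts on CRY, was below 1 TPM in both hearts. All 6 co-repressor genes reached 1 TPM, with a median log2 ratio of 0.05. Ncor1, the partner of REV-ERB receptors, stood at 50.8 TPM in replicate 2 and 51.7 TPM in replicate 1, and Sfpq and Nono had log2 ratios of 0.06 and 0.05. Arntl, Per1, Per2, Cry1 and Cry2 had larger absolute log2 ratios than any tested gene of the enzyme and co-repressor lists. So did Npas2, whose counting interval spanned equal levels, and Clock, which was level under spike-in scaling, while Per3, Nr1d1 and Nr1d2 did not. Arntl, Per2, Cry1 and Npas2 rest on fewer counts than most genes of these lists. Ratios larger than those of the 2 lists were not particular to the core genes. Ciart, at 0.50, exceeded Per2, Cry1 and Cry2 but not Arntl or Per1. Dbp and Hlf, at 0.24 and 0.25, exceeded Clock in absolute log2 ratio but not Cry2.

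Of 6 genes known as clock-controlled outputs in heart or other tissues, all reached 1 TPM, and their median log2 ratio was 0.05. Dgat2, an enzyme of triglyceride synthesis, stood at 144 TPM in replicate 2 and 142 TPM in replicate 1. Kcnip2, a subunit of a cardiac potassium channel, stood at 77.8 TPM in replicate 2 and 70.7 TPM in replicate 1, with a log2 ratio of 0.10 (interval 0.04 to 0.15). Nampt, an enzyme of NAD synthesis, was at 0.00 (interval -0.05 to 0.05), and Klf15, a regulator of cardiac metabolism, at 0.13 (interval 0.03 to 0.22). Wee1, a cell cycle kinase gene named after its values were seen, had the largest ratio of the 6, at 0.41 (interval 0.18 to 0.65), with 386 counts in replicate 2 and 247 in replicate 1.

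Per1 is known to respond to glucocorticoids and to stimuli that induce immediate early genes, so both lists are given beside it. Of 7 glucocorticoid-responsive genes, 2 had a log2 ratio above 0, Tsc22d3 at 0.42 (interval 0.34 to 0.50) and Sgk1, named after its values were seen, at 0.49 (interval 0.37 to 0.61). Mt2, a metallothionein gene, was 1.61-fold higher in replicate 1. Mt1, Pdk4 and Zbtb16 had log2 ratios of -0.08, -0.31 and -0.13, and the median of the list was -0.08. Of 8 immediate early genes, Nr4a3, Nr4a1 and Atf3 passed 1.5-fold toward replicate 2, at log2 ratios of 1.42, 1.18 and 0.85. Of the 12453 genes, 0.827% did so, and of the 5753 with 50 to 500 counts, 1.55%. Nr4a1 had 1439 counts in replicate 2 and 539 in replicate 1. Dusp1, Junb, Ier2 and Egr1, the last named after its values were seen, were lower in replicate 2, at -0.14, -0.27, -0.32 and -0.41. Fos, also named after its values were seen, was at 0.20 (interval -0.19 to 0.60), and the median of the list was 0.03. The part of these responses, and of the hour of collection, in the Per1 difference was not tested.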

How the data were processed

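Gene tables (expected counts, posterior mean TPM, TPM with interval bounds, and FPKM) and 2 transcript tables for each library were deposited by the authors for mm10 with GENCODE M21, per the file descriptions. One transcript table was made from an alignment and the other directly from reads, with estimated counts and TPM as deposited. The sources used here do not give the quantifiers' versions or whether strand was used. Spike-ins (96) and entries that name no gene, with 2 and 3 counts in replicates 2 and 1, were left out of library sizes. TMM factors were fitted to expected counts, each rounded to a whole number (edgeR 4.0.16, R 4.3.3), after its filter on low counts, over the whole table. Log2 ratios are replicate 2 over replicate 1 with a prior of 0.5 on scaled counts. Intervals are Clopper-Pearson at 95% and cover counting error only, since reads without molecular identifiers are not independent molecules. Transcript shares are of a gene's TPM. The ratio code was tested on simulated data. Alternatives used DESeq2 1.42.0 size factors, total and spike-in scaling, FPKM, other TPM values, another prior, no filter and each heart left out. Scripts ran in Python 3.11.15 with scipy 1.17.1. The members and lists were chosen with earlier results of these data known. Named were all members, and from each list the up to 4 highest in TPM, those below 1 TPM in both hearts and those past 1.5-fold. Some list genes are counted but not reported here by name. Of overlapping genes, those with 1 TPM in both hearts were named. RefSeq proteins and pairwise identity were not analysed here.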

Additional observations from a re-analysis of the deposited data

How the results depend on the processing

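The median of the 10 clock genes stayed within the spread between hearts in the read-based table and with posterior mean TPM. It was 5.89 in FPKM and 19.1 TPM after rescaling to nuclear protein-coding genes, which enlarges every value by construction. Members at 1 TPM in both hearts numbered 9, and 10 in the read-based table and after that rescaling. The count of members past 2-fold was 0, and became 1 under spike-in scaling (Per1), 1 by the ratio of TPM (Per2) and 2 at a threshold of 1.5-fold (Per1 and Arntl). The ratio of TPM over transcripts of at least 500 bases, chosen after seeing the data, was 1.40-fold for Per2 and 1.83-fold for Per1. Of 72 alternative values of member ratios, 2 changed sign, both under spike-in scaling, where Clock came to 0.00 and Nr1d1 to 0.03. Some of the 72 could not change sign. The 10 values without the filter repeat the main ones, and a larger prior, in 10 more, leaves the sign as it was. Among within-library log2 ratios, Per2 over Arntl was -0.30 in the mean of the read-based table, against 0.08 in the gene table, and Cry1 over Arntl was 0.026 with posterior mean TPM, against -0.31. The cause of these shifts was not tested. With 1 heart left out, the gene-table log2 ratio of Per3 over Per2 ranged from -0.32 to 0.70. That of Per2 over Arntl ranged from -0.78 to 0.94. Those of Per3 and Cry1 over Arntl ranged from -0.081 to 0.63 and from -0.87 to 0.25. Nr1d1 over Arntl ranged from 3.38 to 3.96, and repressors over activators from 2.71 to 3.22. Leaving out a heart removes the ratio between hearts, so no such value exists for it. No paired analysis was possible because the series has 1 group. With 1 library for each heart, counting error bounds the depth but not the variation between animals, and the low counts of Npas2, Cry1 and Arntl give the widest intervals.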
